A study of Mus musculus with 4 samples.

Results

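Lysosomal protein processing was examined through 10 genes taken by name: the cathepsins Ctsa, Ctsb, Ctsd, Ctsh, Ctsl, Ctss and Ctsz, the lysosomal membrane proteins Lamp1 and Lamp2, and the transcription factor Tfeb. All 10 of these genes were among the 56748 genes of the count table, and all 10 passed the filter on low counts that left 15320 genes for testing. The RNA came from 2 saline and 2 ADC/cmLumiOpto samples of female BALB/cJ mice injected through the tail vein at 7 weeks of age with 4T1-FLuc, a mouse triple-negative breast cancer line that expresses luciferase. The control mice were given saline (PBS in the labels). The other mice were given CD276-DM1, an antibody-drug conjugate (ADC) in which a CD276 antibody carries the tubulin poison mertansine, together with cmLumiOpto for 3 weeks. cmLumiOpto is an exosome-associated AAV that also carries the CD276 antibody on its surface. In it a cfos promoter drives CoChR, a light-gated channel placed in cancer mitochondria. The light comes from the luciferase NLuc of the vector acting on the substrate ViviRen. The methods give 8 mg/kg of ADC, whereas the labels give 16 mg/kg and the word Olap, and the labels speak of tumor cells harvested from lung where the methods describe dissociated lung tissue. ADC and cmLumiOpto were not given apart in these samples, so their shares in a difference cannot be told apart. The methods name 4 biological samples per group, of which 2 per group were analysed here. The labels do not say from which mouse each came, and p-values measure only the spread between these samples.

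Each sample held between 15263375 and 19675436 counts in total, and 3 counts, used as a floor for counting error only, correspond to 0.152 to 0.197 CPM (counts scaled to library size). Epithelial markers chosen for the tumor (11 genes such as Krt8 and Epcam) summed to between 3071 and 3574 CPM in the 4 samples. After ADC/cmLumiOpto, 4 of them were at a higher and 7 at a lower log2 fold change, with a median of -0.25. Which epithelial cells made this RNA was not tested, so the sum does not measure the share of tumor. The labels name the cell line 4T1, but markers of other lung and blood cells were present in every sample. Fibroblast markers summed to 5161 and 3549 CPM in the saline samples and to 1817 and 1492 CPM after ADC/cmLumiOpto. Those of alveolar type 2 cells summed to 1829.7 and 529 CPM against 6013 and 5052 CPM. Neutrophil markers were at 9410.2 CPM in ADC/cmLumiOpto replicate 2 and between 1131 and 1926 CPM in the other samples. In bulk RNA, fewer cells of a type and less RNA per cell cannot be told apart.

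Cathepsins are proteases made as inactive precursors, sorted to the lysosome through mannose 6-phosphate receptors and activated in its acid interior. LAMP proteins line the lysosomal membrane, and TFEB is a master regulator of lysosomal genes that binds the E-box core CACGTG within a longer motif called CLEAR. The linker of a lysine-linked DM1 conjugate of the SMCC type cannot be cut by proteases, so such a conjugate releases its drug when the antibody itself is degraded in the lysosome. In lung, cathepsins are abundant in macrophages, and cathepsin H and napsin A take part in maturing surfactant protein B in alveolar type 2 cells.

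The promoter sequences are shown because TFEB is both 1 of the genes examined and a reader of this motif. RefSeq windows of 300 bases (250 before to 50 after a gene start, build GRCm38.p6) matched 8 of the 10 genes, all but Ctsb and Ctsh. The core CACGTG, the same on both strands, was found in 4 of these 8 genes (Ctsa, Ctsd, Ctsl and Lamp1) and in 8.09% of 27025 genes with such windows. The longer TCACGTGA, which contains the core, was found in 2 of the 8 genes (Ctsa and Ctsd) and in 1.12% of all genes. The 10-base form with GT before and AC after the core was found in 0 of the 8 genes and in 0.37% of all genes. The windows with the core are printed 5′ to 3′ on the strand of the gene, with the core in capitals.
Ctsa, second of 2 start sites, chr2:164833523-164833822, plus strand: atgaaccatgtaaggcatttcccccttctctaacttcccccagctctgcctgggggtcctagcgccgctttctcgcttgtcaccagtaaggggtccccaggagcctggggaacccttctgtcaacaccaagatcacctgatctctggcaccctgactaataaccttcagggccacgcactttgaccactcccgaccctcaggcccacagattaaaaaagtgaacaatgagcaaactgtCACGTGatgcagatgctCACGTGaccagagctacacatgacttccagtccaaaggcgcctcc
Ctsd, chr7:142387778-142388077, minus strand: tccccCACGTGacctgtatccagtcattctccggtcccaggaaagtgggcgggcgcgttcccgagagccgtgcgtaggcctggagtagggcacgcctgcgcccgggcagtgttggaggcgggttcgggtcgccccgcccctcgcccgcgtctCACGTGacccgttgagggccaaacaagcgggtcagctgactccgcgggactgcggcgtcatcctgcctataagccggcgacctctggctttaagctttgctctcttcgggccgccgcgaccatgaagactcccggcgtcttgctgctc
Ctsl, chr13:64370471-64370770, minus strand: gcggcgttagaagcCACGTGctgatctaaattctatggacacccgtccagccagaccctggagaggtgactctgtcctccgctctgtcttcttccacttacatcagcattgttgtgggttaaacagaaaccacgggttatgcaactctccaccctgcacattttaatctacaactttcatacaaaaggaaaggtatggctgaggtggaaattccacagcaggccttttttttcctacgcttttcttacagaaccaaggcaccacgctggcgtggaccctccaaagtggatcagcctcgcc
Lamp1, chr8:13158911-13159210, plus strand: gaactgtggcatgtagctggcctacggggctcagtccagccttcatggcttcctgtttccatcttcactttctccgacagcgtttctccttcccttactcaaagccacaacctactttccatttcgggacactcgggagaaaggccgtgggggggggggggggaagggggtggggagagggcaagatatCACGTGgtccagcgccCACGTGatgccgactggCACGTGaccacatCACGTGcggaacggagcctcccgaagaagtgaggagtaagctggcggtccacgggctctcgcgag
Lamp1 carried 4 copies of the core, at 61, 45, 28 and 15 bases before its start. Ctsd had 2 copies, at 245 and 98 bases before the start, and Ctsl had 1, at 236 bases before it. In Ctsa, 1 copy began 12 bases before the start and the other 5 bases after it. Ctss, Ctsz, Lamp2 and Tfeb had no match in their windows, which says only that these letters are not there. A match is a description of the sequence and not evidence of binding.

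After ADC/cmLumiOpto, RNA of all 10 genes was at a positive log2 fold change, from 0.07 for Lamp1 to 0.99 for Ctsh, with a median of 0.32 against 0.028 over all tested genes, although Ctss, Ctsz and Lamp1 were negative with the trend on gene length removed. None of the 10 passed edgeR's quasi-likelihood test at an adjusted p of 0.05, as was the case for all tested genes (0 genes, 0.0%). The smallest adjusted p of any gene was 0.116. Ctsh alone had an unadjusted p under 0.05, where 11.0% of all tested genes did so with higher and 12.2% with lower RNA. In 5 of the 10 genes (Ctsa, Ctsb, Ctsd, Ctsh and Lamp2) both treated samples lay above both saline samples, and in 0 did both lie below. Over all tested genes these shares were 28.1% and 28.8%. Counts over 10 genes depended on single samples. Without ADC/cmLumiOpto replicate 2, 8 genes were higher and 0 lower without overlap, against 41.0% and 40.4% of all tested genes. The median log2 fold change of the 10 genes was then 0.42. Without ADC/cmLumiOpto replicate 1 the median was 0.15, and Ctss and Lamp1 were both at -0.05. In that fit 6 genes were higher and 0 lower without overlap, against 40.7% and 37.8% of all tested genes. Leaving out saline replicate 1 gave 9 without overlap (8 higher and 1 lower, where 41.5% of all tested genes were higher and 37.0% lower). Leaving out saline replicate 2 gave 7 higher and 0 lower, where the shares were 37.7% and 36.3%. The 10 genes together took 0.541% and 0.585% of all counts under saline and 0.761% and 0.659% in the ADC/cmLumiOpto samples. The share of mitochondrial counts was 1.13% and 1.17% against 2.09% and 1.84%, and the 50 highest genes took 16.2% of counts in ADC/cmLumiOpto replicate 1 and at most 13.4% in the other samples. Their part in the values of the 10 genes was not tested.

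Levels between genes were compared as RPKM, in which counts are scaled to gene length and library size. Ctss was the highest of the 10 genes in all 4 samples and Tfeb the lowest. In the saline group the order ran from Ctss at 506 ± 131 RPKM (SD, n = 2) through Lamp1 at 297 ± 17.3, Ctsd at 268 ± 16.4, Ctsz at 255 ± 21.1, Ctsb at 196 ± 6.34 and Ctsl at 176 ± 79.3 RPKM to Ctsa at 62.9 ± 1.72, Lamp2 at 42.8 ± 3.11, Ctsh at 41.6 ± 8.24 and Tfeb at 2.59 ± 0.896 RPKM. The ranges of 3 neighbouring pairs in this order overlapped (Ctsd and Ctsz, Ctsb and Ctsl, Lamp2 and Ctsh). After ADC/cmLumiOpto, Ctsd came second at 342 ± 64.7 RPKM (SD, n = 2), and its range overlapped that of Ctsz at 319 ± 69.8 RPKM, as those of Ctsz and Lamp1 did. Ctsh, at 82.7 ± 20.5 RPKM, was then next to Ctsa at 78.4 ± 3.16 RPKM with overlapping ranges. By mean RPKM, Ctss ranked 80 in the saline group and 75 after treatment among 15320 tested genes, and Ctsh went from rank 1301 to rank 630. Tfeb, a transcription factor gene, ranked 9872 and 8934.

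**Figure D1:**
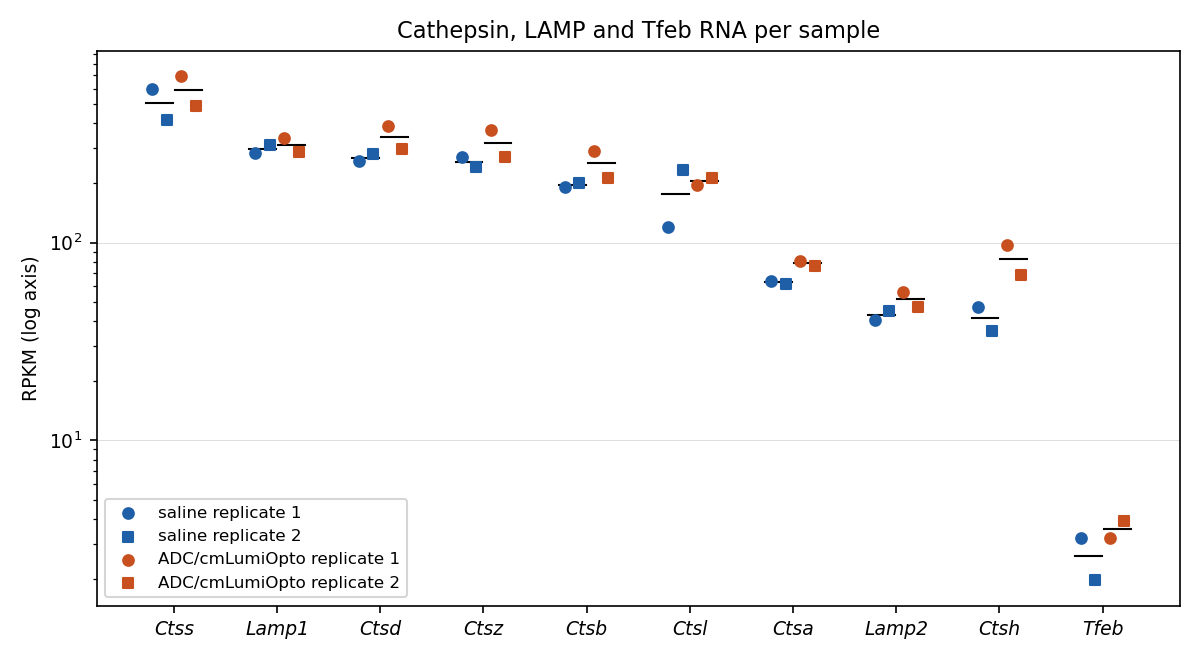
RPKM on a log axis of the 10 genes in each of the 4 samples, ordered by the saline mean, with circles for replicate 1, squares for replicate 2 and short lines at the mean of each group. Ctss was highest in every sample, from 414 to 695 RPKM, Tfeb was between 1.96 and 3.91 RPKM, and Ctsh has the largest ratio between its group means, 82.7 against 41.6 RPKM.

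Among the proteases, Ctsh (ENSMUSG00000032359, chromosome 9: 89936205 to 89958142, positions as in the table, for which the submitters' processing notes name the build mm39) encodes an aminopeptidase of the papain family. Its counts were 3417 and 2390 under saline and 7724 and 6298 after ADC/cmLumiOpto, which is 213 and 161 CPM against 437 and 307 CPM. Both treated samples lay above both saline samples. The fold change was 1.99, or 0.99 on the log2 scale with a standard error (SE) of 0.237 (unadjusted p = 0.0048 and adjusted p = 0.123 in edgeR's quasi-likelihood test), and 9.41% of tested genes had a larger log2 fold change. The edgeR exact test gave Ctsh an adjusted p of 0.0149 and DESeq2 0.00381, tests that called 3.96% and 3.75% of all tested genes higher. With either of these Ctsh was the single gene of the 10 to pass. Its log2 fold change was between 0.71 and 1.22 when each sample was left out in turn.

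The other cysteine proteases had smaller log2 fold changes, none with an unadjusted p under 0.05. Ctsb (ENSMUSG00000021939, chromosome 14), among the most abundant endopeptidases of the lysosome, had 18561 and 18021 counts under saline and 31113 and 26251 after treatment, or 1159 and 1213 CPM against 1761 and 1279 CPM. ADC/cmLumiOpto replicate 2 was only slightly above the saline samples, and the log2 fold change was 0.36 with SE 0.204 (edgeR, adjusted p = 0.329). Ctsl (ENSMUSG00000021477, chromosome 13), an endopeptidase that also trims the invariant chain in some antigen-presenting cells, was at 781 and 1508 CPM in the saline samples, 1.93-fold apart. The treated samples, at 1268 and 1379 CPM, lay between them. Its log2 fold change was 0.21 with SE 0.307 (edgeR, adjusted p = 0.711), and it was -0.20 without saline replicate 1 and 0.76 without saline replicate 2.

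Ctss (ENSMUSG00000038642, chromosome 3), the cathepsin of macrophages, dendritic cells and B cells that frees class II molecules from the invariant chain, was at 813 and 562 CPM in the saline samples and 944 and 664 CPM after treatment. ADC/cmLumiOpto replicate 2 lay between the saline samples, so the groups overlapped. The log2 fold change was 0.23 with SE 0.255 (edgeR, adjusted p = 0.62). Ctsz (ENSMUSG00000016256, chromosome 2), a carboxypeptidase also called cathepsin X, was at 389 and 346 CPM against 531 and 389 CPM. The lower treated sample was level with the higher saline sample, and the log2 fold change was 0.32 with SE 0.201 (edgeR, adjusted p = 0.367). Markers of macrophages and monocytes (15 genes) summed to 3815 and 2919 CPM under saline and 6934 and 4506 CPM under treatment, with 12 genes at a higher and 3 at a lower log2 fold change. Of these, C1qa was at 533 and 405 CPM against 724 and 495 CPM and Lyz2 at 1685 and 1127 CPM against 4293 and 2444 CPM, whereas Mrc1, 1 of the 3 lower genes, was at 212 and 391 CPM against 135 and 171 CPM, and no gene of the list was at 0. Lyz2 alone made up most of both treated sums, so the list sum follows this 1 gene. The median log2 fold change of the list was 0.38. With the length trend removed the median was 0.15 and the log2 fold change of C1qa was 0.02. Markers of alveolar macrophages summed to 208 and 568 CPM under saline and 185 and 299 CPM after treatment, with 5 higher and 4 lower of 9 tested genes and a median of 0.09. The part of macrophages in the cathepsin values was not tested.

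Ctsd and Ctsa belong to other protease classes. Ctsd (ENSMUSG00000007891, chromosome 7), the main aspartic protease of the lysosome, had 603 and 658 CPM under saline and 912 and 697 CPM under treatment. The groups did not overlap, although the higher saline and the lower treated sample were near each other. Its log2 fold change was 0.35 with SE 0.191 (edgeR, adjusted p = 0.308), and it was 0.09 with the trend on gene length removed. Ctsa (ENSMUSG00000017760, chromosome 2), a serine carboxypeptidase that also protects beta-galactosidase and neuraminidase, was at 302 and 291 CPM against 380.4 and 359 CPM. Its samples agreed closely, with 1.04-fold between the saline and 1.06-fold between the treated samples, and the log2 fold change was 0.32 with SE 0.152 (edgeR, adjusted p = 0.258). Ctsa overlaps Pltp, which lies on the other strand and had between 344 and 1159 counts, whereas Ctsa had between 4317 and 7378. Ctsb overlaps Fdft1, also on the other strand, at 860 to 1338 counts, as Ctsz does Nelfcd, at 553 to 611 counts, and Lamp1 does Grtp1, at 43 to 106 counts. The labels do not settle whether the libraries kept the strand.

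The membrane proteins gave small differences. Lamp1 (ENSMUSG00000031447, chromosome 8) was at 762 and 828 CPM in the saline samples and 906 and 766 CPM after treatment. The groups overlapped, and its log2 fold change of 0.07 with SE 0.172 (edgeR, adjusted p = 0.829) was the smallest of the 10. A tie between the E-box cores of the promoter windows and the log2 fold changes was not tested, and Ctsh had no window to search. Lamp2 (ENSMUSG00000016534, chromosome X), whose splice forms serve chaperone-mediated autophagy and fusion with autophagosomes, was at 388 and 430.3 CPM against 535 and 453 CPM. Both treated samples were above both saline samples, and the log2 fold change was 0.27 with SE 0.17 (edgeR, adjusted p = 0.372). Lamp2 has the longest gene model of the 10, at 9552 bases, and its value was 0.49 with the length trend removed.

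Tfeb (ENSMUSG00000023990, chromosome 17) had 293 and 165 counts under saline and 321 and 455 in the ADC/cmLumiOpto samples, or 18.3 and 11.1 CPM against 18.2 and 22.2 CPM. Saline replicate 1 and ADC/cmLumiOpto replicate 1 were level. The log2 fold change was 0.46 with SE 0.298 (edgeR, adjusted p = 0.39), and it ranged from 0.14 to 0.85 as samples were left out. RNA levels do not measure the movement of TFEB to the nucleus, the step at which the protein is mainly controlled.

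**Figure D2:**
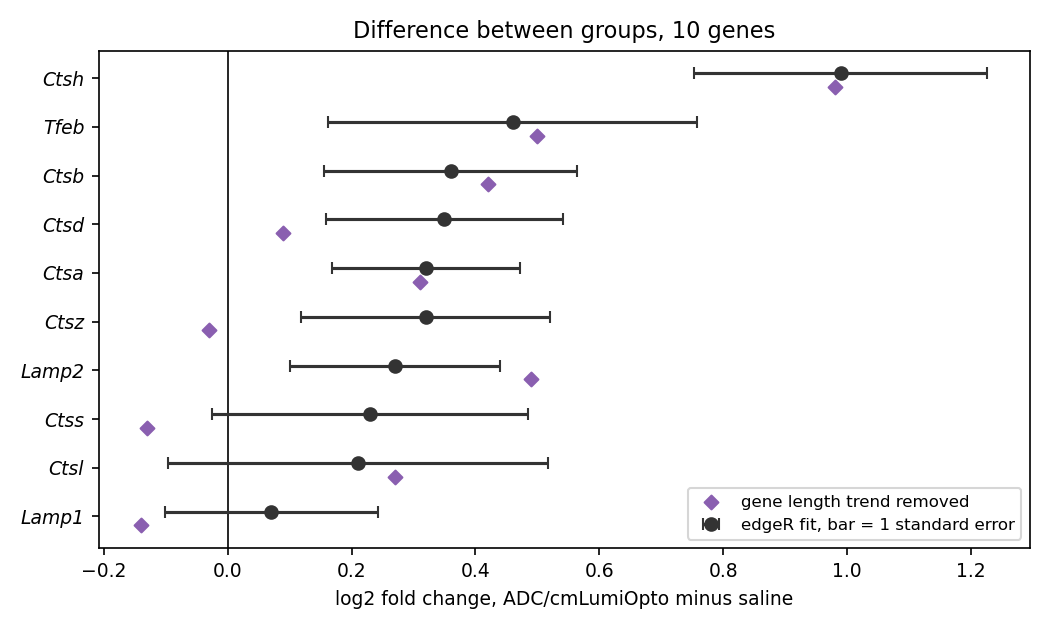
Log2 fold change of ADC/cmLumiOpto against saline for the 10 genes, with bars of 1 standard error from edgeR, and the value after removal of the trend on gene length as diamonds. Ctsh is at 0.99 and 0.98 in the 2 fits, whereas Ctss, Ctsz and Lamp1 go from 0.23, 0.32 and 0.07 to -0.13, -0.03 and -0.14.

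In 7 of the 10 genes, the larger of the fold differences between the samples of a group exceeded the fold between the group means. For Ctsb, Ctsd and Ctsz only the treated pair did so, at 1.38, 1.31 and 1.37, with the saline pair at 1.05, 1.09 and 1.12. For Ctsl and Tfeb only the saline pair did, and for Ctss and Lamp1 both pairs. Taking the larger of 2 folds favours the within-group side, and the share over all genes was not computed. ADC/cmLumiOpto replicate 1 was above replicate 2 in 8 genes, with Ctsl and Tfeb as the exceptions, while 5 genes were higher in each of the saline samples. With a smooth trend of each sample's values on gene length removed, Ctss, Ctsz and Lamp1 had log2 fold changes of -0.13, -0.03 and -0.14. The median of the 10 genes was then 0.29, against -0.037 for all tested genes.

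Ctsh stood beside other genes of alveolar type 2 cells. Napsa, an aspartic protease of these cells, had 589 and 319 counts under saline and 1524 and 2081 after treatment, a log2 fold change of 1.69 with SE 0.275 (edgeR's quasi-likelihood test, adjusted p = 0.116 and 3.98e-05 in its exact test). Lamp3, a LAMP protein of lamellar bodies and of mature dendritic cells, had 272 and 56 counts against 1116 and 934, a log2 fold change of 2.38 with SE 0.61 (edgeR's quasi-likelihood test, adjusted p = 0.123). Both genes were higher in both treated samples than in both saline samples. The surfactant gene Sftpc was at 1015 and 174 CPM in the saline samples and 4315 and 3422 CPM in the treated ones. Of the 8 marker genes of these cells, 6 lay above and 2 (Abca3 and Etv5) below the saline samples without overlap, and none was at 0. The part of alveolar type 2 cells in the Ctsh value was not tested, and Ctsh is also made by macrophages.

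**Figure D3:**
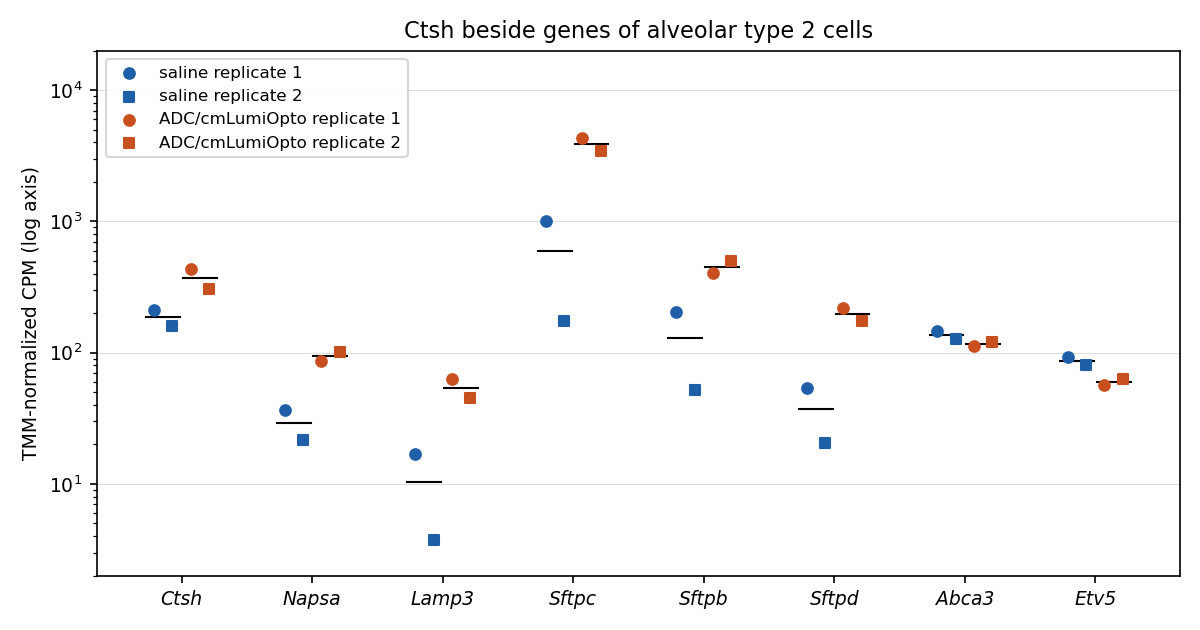
TMM-normalized CPM on a log axis of Ctsh, Napsa, Lamp3 and 5 markers of alveolar type 2 cells in each sample, with circles for replicate 1, squares for replicate 2 and lines at group means. In the 6 genes from Ctsh to Sftpd both treated samples are above both saline samples, while Abca3 and Etv5 are lower in the treated samples.

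The wider lysosomal system was followed through 9 lists with 190 tested genes beside the 10. No gene of these lists passed the quasi-likelihood test, 35 were higher and 7 lower at an unadjusted p under 0.05, and their median log2 fold change was 0.15. Over all tested genes 11.0% were higher and 12.2% lower at such a p. With the edgeR exact test 11 genes were called higher and 1 lower, where it called 3.96% of all tested genes higher and 3.68% lower. With DESeq2 the counts were 15 and 2, where it called 3.75% higher and 4.94% lower.

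Of the other cathepsins, 7 of 16 were tested, 4 were higher and 0 lower at an unadjusted p under 0.05, and the median was 1.16. This median was 0.83 with the length trend removed and ranged from 0.86 to 1.18 with a sample left out. Ctsk, a collagen-degrading cathepsin known from osteoclasts, had 175 and 101 counts under saline and 400 and 360 after treatment, a log2 fold change of 1.18 (edgeR, adjusted p = 0.123). With the length trend removed it was 0.84. Ctsw, a cathepsin of cytotoxic T and NK cells, had 47 and 16 counts against 194 and 112. Its log2 fold change was 2.02, beside T and NK cell markers that summed to 64.9 and 23.8 CPM in the saline and 133 and 58.1 CPM in the treated samples. Ctso was at 41.6 and 43.6 CPM against 77.3 and 60.3 CPM, a log2 fold change of 0.69. Ctsc, which activates granule serine proteases, overlapped between the groups at 488 and 256 CPM against 674 and 347 CPM, with a log2 fold change of 0.46 (edgeR, adjusted p = 0.518).

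Inhibitors of the cathepsins were at positive log2 fold changes in 10 of 10 tested genes, although those of Cst6 and Ctla2a were -0.03 and -0.15 with the length trend removed. Of the 10, 3 were higher at an unadjusted p under 0.05, and the median was 0.75. With the length trend removed the median was 0.43 and the count was 1, where 8.73% of all tested genes were higher. With a sample left out, 12 to 14 inhibitors passed the filter. Their median was 0.41 without ADC/cmLumiOpto replicate 1, 0.32 without replicate 2, 1.08 without saline replicate 1 and 0.81 without saline replicate 2. Cst3, which encodes the secreted inhibitor cystatin C, was at 477 and 482 CPM in the saline samples and 873 and 600.2 CPM after treatment, a log2 fold change of 0.62 (edgeR, adjusted p = 0.167). The cytosolic inhibitor Cstb was at 146 and 155 CPM against 218 and 187 CPM, a log2 fold change of 0.43 (edgeR, adjusted p = 0.189). With the length trend removed the log2 fold changes of Cst3 and Cstb were 0.26 and 0.10. The serpin gene Serpinb6b had a log2 fold change of 0.88. The stefin genes Stfa2, Stfa2l1 and Stfa3 were high in 1 sample, ADC/cmLumiOpto replicate 2, as the neutrophil markers were. Stfa2 had 915 and 275 counts under saline and 259 and 6210 in the treated samples. These 3 stefin genes are closely related in sequence, so the split of reads among them is uncertain, and they were singled out after their values were seen.

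The 9 other lysosomal proteases had a median of 0.30 (0.10 with the length trend removed and 0.19 without ADC/cmLumiOpto replicate 1), with Napsa and Cpq higher at an unadjusted p under 0.05. Cpq, a carboxypeptidase, was at 40.5 and 38.5 CPM against 67.1 and 62.8 CPM, a log2 fold change of 0.72, and the dipeptidase gene Dpp7 had 0.75 (edgeR, adjusted p = 0.266). Lgmn, the asparagine endopeptidase that processes cathepsin precursors, was at 547 and 449 CPM under saline and 657 and 566 CPM under treatment. Its log2 fold change was 0.30 (edgeR, adjusted p = 0.36). Ifi30, the thiol reductase GILT of antigen processing, had 144 and 100.4 CPM against 190.1 and 145 CPM, a log2 fold change of 0.46 (edgeR, adjusted p = 0.288). With the length trend removed Lgmn and Ifi30 were at 0.04 and 0.10.

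The vacuolar ATPase is the proton pump that acidifies the lysosome. Of 23 tested subunits and accessory proteins, 10 were higher and 0 lower at an unadjusted p under 0.05, against 11.0% and 12.2% of all tested genes. Without overlap, 17 were higher and 0 lower, against 28.1% and 28.8%, and the median was 0.29. Atp6v0b, a subunit of the membrane ring, had 817 and 797 counts under saline and 2176 and 2317 after treatment, a log2 fold change of 1.17 (edgeR's quasi-likelihood test, adjusted p = 0.116, and its exact test, 8.89e-05). Atp6v1f was at 83.8 and 70.8 CPM against 154 and 117 CPM, a log2 fold change of 0.81 (0.45 with the length trend removed). Atp6v1c2, a form known from lung and kidney epithelium, had 22 and 6 counts against 85 and 143 and a log2 fold change of 2.71. The count of 10 higher subunits became 7 with the length trend removed, where 8.73% of all tested genes were higher. It became 3 with a replicate block and the length trend removed, where that share was 9.95%. The median of the subunits was 0.4 without saline replicate 1 and 0.3 without saline replicate 2. It was 0.29 without ADC/cmLumiOpto replicate 1 and 0.32 without ADC/cmLumiOpto replicate 2. These alternatives were picked with the values already known.

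Enzymes that degrade glycans, lipids and nucleic acids had a median of 0.04 over 37 tested genes (-0.05 with the length trend removed), with 3 higher and 0 lower at an unadjusted p under 0.05. The 3 were Dnase2a, Hexa and Neu1, with log2 fold changes of 0.68, 0.75 and 0.48, of which that of Hexa was 0.45 with the length trend removed. Lysosomal membrane and transport genes had a median of 0.27 over 30 tested genes, with 3 higher and 1 lower at an unadjusted p under 0.05. Npc2, a cholesterol-binding protein, was at 639 and 566 CPM against 1161 and 831 CPM, a log2 fold change of 0.72, and the channel gene Tpcn1 was lower, at 154 and 222 CPM against 107 and 133 CPM. Slc46a3, a lysosomal transporter known to carry maytansine-based catabolites of ADCs to the cytosol, had 68 and 34 counts under saline and 105 and 97 after treatment. Both treated samples were above both saline samples, and the log2 fold change was 0.70 with SE 0.429 (edgeR, adjusted p = 0.358). The calcium channel gene Mcoln1, itself a known TFEB target, had a log2 fold change of 0.22 (edgeR, adjusted p = 0.468). Cd276 encodes the target of the antibody in both the ADC and cmLumiOpto. It was at 109 and 99.8 CPM in the saline samples and 63.6 and 71.4 CPM after treatment, without overlap (log2 fold change -0.63, adjusted p = 0.123 in edgeR).

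Genes of sorting to the lysosome had a median of -0.18 over 26 tested genes, with 1 higher and 1 lower at an unadjusted p under 0.05. These were Bloc1s2, at a log2 fold change of 0.66, and the adaptor gene Ap1g1, at -0.44, and Gnptg, which takes part in adding the mannose 6-phosphate tag, was at 0.57 (edgeR, adjusted p = 0.217). With the length trend removed Bloc1s2 and Gnptg were at 0.33 and 0.29. Tfe3 and Mitf, relatives of Tfeb that bind the same motif, were at small negative values, whereas the fourth of this family, Tfec, was at 0.14 (edgeR, adjusted p = 0.808). Tfe3 was at 98.3 and 83.5 CPM against 70.5 and 87.2 CPM, a log2 fold change of -0.21 (edgeR, adjusted p = 0.539), and Mitf was at -0.10 (adjusted p = 0.829). In the list of these factors and of lysosomal nutrient sensing, 5 of 21 genes were higher and 3 lower at an unadjusted p under 0.05. The shares over all tested genes at such a p were 11.0% and 12.2%. The median of the list was -0.05 (0.09 with the length trend removed and 0.03 with upper-quartile factors). Lamtor4, part of the Ragulator complex on the lysosome, was at 30.5 and 26.9 CPM in the saline samples and 53.3 and 48.0 CPM after treatment, a log2 fold change of 0.82 (edgeR, adjusted p = 0.116), or 0.47 with the length trend removed. The lower genes included Tsc2 and Fnip1, with log2 fold changes of -0.67 and -0.59. Among 28 autophagy genes, 4 were higher and 2 lower at an unadjusted p under 0.05. Their median was -0.05 (0.03 with the length trend removed and 0.04 with upper-quartile factors). Atg3 and Atg4a, enzymes of the LC3 conjugation system, had log2 fold changes of 0.70 and 0.83, and Wipi1, which binds the early autophagic membrane, had -0.91.

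**Figure D4:**
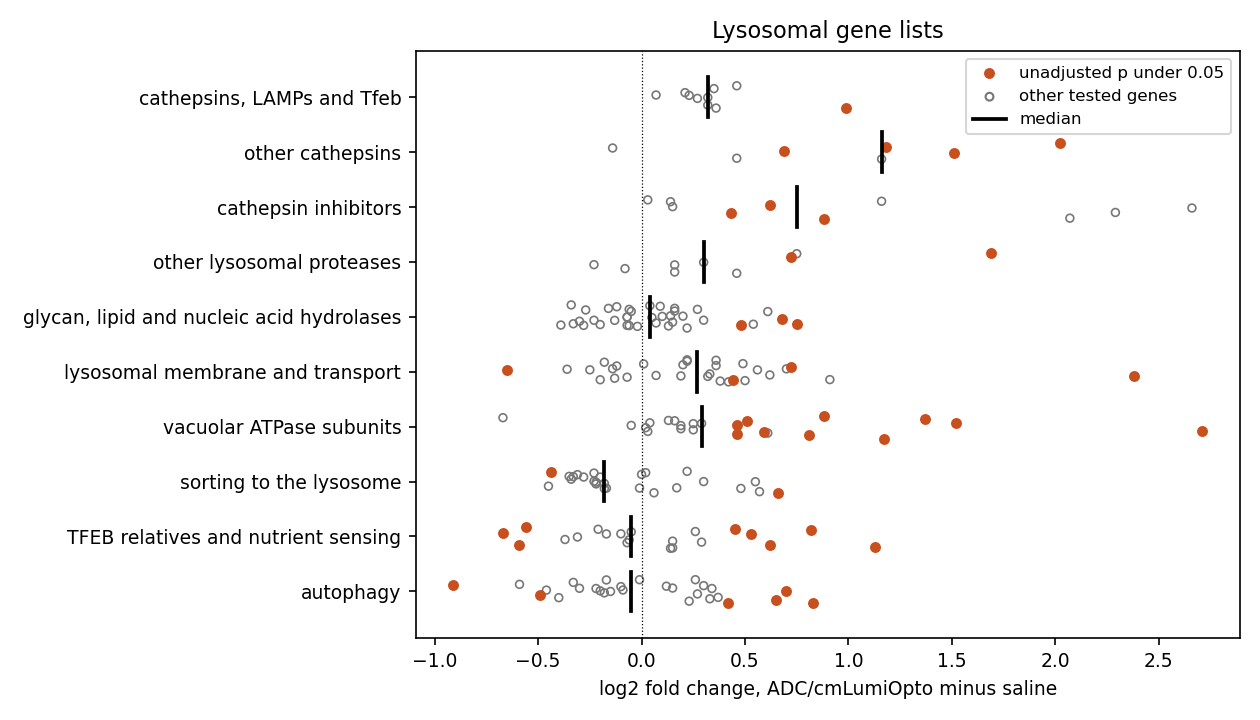
Log2 fold change of each tested gene in the 10 cathepsin, LAMP and Tfeb genes and in 9 other lysosomal lists, with filled points for an unadjusted p under 0.05, open points for the others and a bar at the median. The medians run from -0.18 for sorting genes to 1.16 for the other cathepsins, and all 10 filled points of the vacuolar ATPase are on the positive side.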

How the data were processed

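Bulk RNA was sequenced from 2 saline and 2 ADC/cmLumiOpto samples, grouped by their titles. The authors deposited raw counts per gene, aligned with HISAT2. The methods name GRCm38 and the submitters' processing notes mm39, and the counting program is not given in the sources used here. The deposited gene length (another value of the table, in bases) was used for RPKM. Analysis used edgeR 4.0.16 in R 4.3.3, with a filter by filterByExpr (minimum count 10, minimum total 15), TMM normalization and comparison by glmQLFit and glmQLFTest over all 15320 genes with Benjamini-Hochberg adjustment and a threshold of 0.05. The standard error is the log2 fold change divided by the square root of F, and the prior count was 0.125. The smallest p that an exact permutation test of 2 samples against 2 allows is 0.333. Alternatives were DESeq2 1.42.0, the edgeR exact test, other normalizations and filters, a lowess trend on gene length (span 0.3), a replicate block and each sample left out. Besides the 10 genes, those named were the 3 with the smallest p in each list and 11 chosen for known ties to cathepsins, the lysosome or maytansinoid conjugates. The other genes named are markers, Cd276, 4 genes that overlap one of the 10, and Mrc1, Tfec, Cst6, Ctla2a and 3 stefins, these 7 chosen after their values were seen. The genes and lists were chosen with earlier results of these data known. Motifs were searched in RefSeq windows by symbol.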

Additional observations from a re-analysis of the deposited data

How the results depend on the processing

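No gene of the 10 had an adjusted p under 0.05 in the quasi-likelihood fit. The count was 1, Ctsh each time, with DESeq2 (adjusted p = 0.00381), the exact test of edgeR (0.0149), a filter of only 1 count in all (5.93e-05 in edgeR), a replicate block (0.0313 in edgeR) and the block with the length trend removed (0.0489 in edgeR). Over all alternatives the adjusted p of Ctsh ranged from 5.93e-05 to 0.478. Over all genes 1332 were called by DESeq2, 1170 by the exact test, 2259 of 25563 without the filter and 607 with the block. Same-numbered samples deviated together with r = 0.0985 across genes, and with 2 samples per group the crossed pairing must give -0.0985. This r cannot show whether same-numbered samples share more than a number. There were only 2 such pairs, so the block is not read as a paired design. At an unadjusted p under 0.05 there was 1 gene, and there were 2 with library size alone, with upper-quartile factors or with the length trend removed, and 1 to 4 with a sample left out. Genes without overlap numbered 5, and 6 to 9 with a sample left out. Over all tested genes 28.1% were higher and 28.8% lower without overlap. With a sample left out these shares rose to between 37.7% and 41.5% higher and between 36.3% and 40.4% lower. With the block and the length trend removed, the log2 fold changes of Ctss, Ctsz and Lamp1 were -0.12, -0.04 and -0.14, and they were -0.13, -0.03 and -0.14 with the trend removed alone. With a sample left out, Ctsl ranged from -0.20 to 0.76, Ctss from -0.05 to 0.51 and Lamp1 from -0.05 to 0.18. The other lysosomal lists had 0 called genes in the quasi-likelihood fit, 17 with DESeq2 and 12 with the exact test. The cause of these differences was not tested. The median log2 fold change of the 10 genes stayed positive under every alternative run, from 0.15 to 0.42 with a sample left out. With a sample left out, the lone sample of a group is assumed to vary like the others. A standard error of 0.152 to 0.307 in the 10 genes limits what 2 samples per group can show.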
